A study of Homo sapiens with 21 samples.

Results

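The response of MOLM-14 cells to knockdown of the kinase SYK was read on 7 of the 21 arrays of a series on 3 human acute myeloid leukaemia cell lines. Genes were kept for description where their log2 change against the control hairpin had the same sign with each of 2 SYK hairpins, which held for 7392 of the 12165 genes tested (4093 higher with both and 3299 lower with both). The control group, shLuc, was transduced with a hairpin against luciferase (3 arrays). The groups shSYK_1 and shSYK_2 each received a different hairpin against SYK (2 arrays each). All 7 cultures, controls included, were placed under puromycin at 1 µg/ml from 48 h after infection, and RNA was taken on day 5. Per the labels each replicate was its own transduction of the same line. The p-values below reflect only the spread among replicate cultures, estimated within groups over all 21 arrays of the 3 lines. For a gene whose spread differs between the lines, that estimate is not the spread of the MOLM-14 cultures alone. The labels do not say that any culture was a clone. Both hairpins were compared with the same 3 shLuc arrays, so an unusual control value moves both changes together, and the share of genes with the same sign is given only as the outcome of the selection rule.

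SYK is a cytoplasmic tyrosine kinase that binds, through its paired SH2 domains, to phosphorylated tyrosine motifs (ITAMs) in the adaptors of Fc receptors, TREM receptors and some lectins, and it also acts downstream of integrins. It passes the signal to scaffold proteins, to phospholipase C gamma, to VAV exchange factors and to the PI3-kinase and ERK pathways. MOLM-14 is a monocytic line known for a tandem duplication inside FLT3, a growth factor receptor kinase, which keeps that receptor and STAT5 active, and the title of the series names SYK as a regulator of FLT3. Arrays of bulk RNA cannot tell fewer cells of a type from less RNA per cell.

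The myeloid identity of the control cells was checked on defining genes chosen beforehand, of which CD33, LYZ and HOXA9 were not measured. Mean log2 intensities in shLuc were 9.95 ± 0.109 (SD, n = 3) for FLT3, 9.46 ± 0.0418 for the beta-2 integrin ITGB2, 8.14 ± 0.0271 for the homeobox gene MEIS1 and 5.56 ± 0.163 for CD4. Those of CSF1R and of the transcription factor SPI1 were low, at 4.43 ± 0.132 and 4.48 ± 0.0857. The marker lists of other lineages had median shLuc levels of 3.22 (erythroid), 2.94 (megakaryocyte), 3.20 (T and NK cell), 3.43 (B cell) and 3.40 (epithelial and stromal). Single members were far brighter, with TFRC at 11.08 (erythroid), PECAM1 at 9.01 (epithelial and stromal) and NKG7 at 7.64 (T and NK cell). The deposited values carry no detection call, so the lowest of these levels cannot be separated from background.

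The hairpins are shown because agreement between different target sequences is what defines the response described here. Capitals mark target bases 14 to 20, which would pair with bases 2 to 8, the seed, of a guide strand antisense to the whole target. Where the hairpin is processed in the cell is not in the labels.
shLuc: cctaaggttaagtCGCCCTCg
shSYK_1: gcagcagaacagaCATGTCAa
shSYK_2: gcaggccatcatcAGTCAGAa
Each target is 21 bases long, with 12, 10 and 11 G or C bases in that order. No SYK transcript was used here to place the targets.

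SYK itself fell with both hairpins, and it was the gene with the largest fall by the smaller of its 2 hairpin changes. Its log2 intensity read 8.49, 8.42 and 8.44 on the shLuc arrays, 6.16 and 6.16 with shSYK_1, and 5.62 and 5.35 with shSYK_2. The groups did not overlap. The change was -2.29 ± 0.0817 (SE) with shSYK_1 and -2.96 ± 0.0817 with shSYK_2, which left 16.2% of the control intensity on average (limma, adjusted p = 3.63e-13). shSYK_2 lowered SYK by 0.67 log2 units more than shSYK_1 (difference -0.67 ± 0.0895, 95% interval -0.86 to -0.48, limma adjusted p = 2.62e-05), so the hairpins were not matched in depth of knockdown. The second SYK probe set gave -1.85 and -2.05.

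A gene was called where its Benjamini-Hochberg adjusted p over all 12165 genes was below 0.05 (limma), and "rose" and "fell" are used only of called genes. For the mean of both hairpins 2361 genes were called, 19.4% of those tested, with 1207 higher (9.92%) and 1154 lower (9.49%). Of these, 2007 had the same sign with each hairpin (1039 higher, 8.54%, and 968 lower, 7.96%). The other 354 were called on the mean although the hairpins pointed opposite ways. With shSYK_1 alone 3096 genes were called (25.5%), 1577 higher (13.0%) and 1519 lower (12.5%). With shSYK_2 alone 2018 were called (16.6%), 1030 higher (8.47%) and 988 lower (8.12%), a count that was 1130 without shSYK_2 replicate 1 and 1079 without replicate 2. The strictest group, called on the mean and with each hairpin in the same direction, held 356 genes that rose (2.93%) and 329 that fell (2.7%).

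These 685 genes moved little. Their median absolute log2 change was 0.48, against 0.35 over all genes called on the mean. A change of 1 log2 unit or more with each hairpin was reached by 4 rises and 5 falls, and a change of 0.5 or more by 76 rises and 93 falls. All 4 knockdown arrays lay above all 3 shLuc arrays for 353 of the 356 rises, where 10.2% of all genes did so, and below them for each of the 329 falls, where 8.66% did so. The call selects for this separation, so it is a description. The count of 685 depended most on the 2 shSYK_2 arrays: it was 405 without replicate 1 and 389 without replicate 2 of that group, and 521 to 567 without any other single MOLM-14 array.

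**Figure D1:**
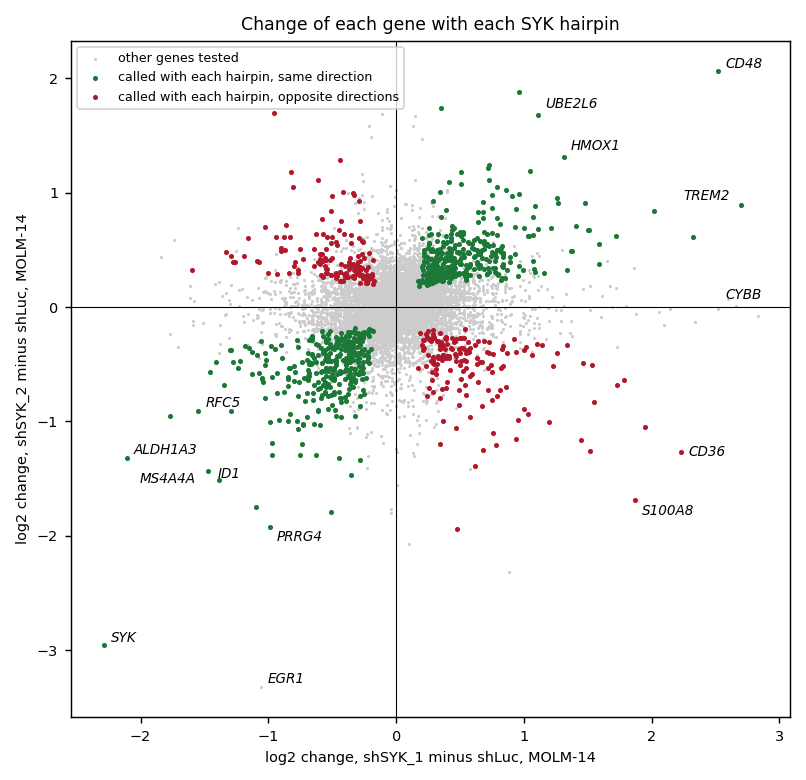
Change of every gene tested with shSYK_1 (x axis) and with shSYK_2 (y axis), each as log2 intensity minus the shLuc mean in MOLM-14. Green points are the 685 genes called with each hairpin in the same direction, red points the 306 called with each in opposite directions, and grey points all other genes. SYK lies lowest among the green points, CD48 lies at upper right, and S100A8 and CD36 lie among the red points at lower right.

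The sign rule has an edge without width. Among genes called on the mean, TBC1D15 (-0.3537 with shSYK_1 and -0.0003 with shSYK_2), CCNB1IP1 (0.001 and 0.3348) and H2BC6 (0.002 and 1.0225) lay just inside it. MRPL24 (-0.0007 and 0.4385), SLC39A14 (-0.8251 and 0.0013) and LSS (0.0014 and -1.244) lay just outside. In each of these genes the change with 1 hairpin was far smaller than its standard error.

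The rises shared by both hairpins were led by CD48, a GPI-anchored adhesion receptor of leukocytes. CD48 read 5.10, 5.2 and 5.11 on the shLuc arrays, 7.56 and 7.74 with shSYK_1, and 7.15 and 7.23 with shSYK_2. Every knockdown array lay above every control array, and the change was 2.29 ± 0.0679, a 4.88-fold rise (limma, adjusted p = 1.46e-12). HMOX1, the heme-degrading enzyme heme oxygenase, read 4.64, 4.41 and 4.42 with shLuc, 5.86 and 5.74 with shSYK_1, and 5.74 and 5.86 with shSYK_2. The 2 hairpins gave the same mean, 1.31 above control each, or 2.48-fold (limma, adjusted p = 4.04e-06).

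UBE2L6, the conjugating enzyme for the ubiquitin-like protein ISG15, read 4.72, 5.05 and 5.11 with shLuc against 6.07, 6.06, 6.63 and 6.64 on the knockdown arrays. It rose by 1.39 ± 0.0824, or 2.62-fold (limma, adjusted p = 1.43e-08). LY96 (MD-2), the co-receptor through which TLR4 recognises endotoxin, read 4.57, 4.08 and 4.18 with shLuc and between 5.24 and 5.47 with the SYK hairpins. Its rise was 1.12 ± 0.159 (limma, adjusted p = 9.57e-05). TREM2, a receptor of macrophages and microglia that signals through the ITAM adaptor TYROBP, read 4.94, 4.25 and 5.00 with shLuc, 7.55 and 7.32 with shSYK_1, and 5.42 and 5.82 with shSYK_2. TREM2 separated the groups with both hairpins but far more widely with shSYK_1 (2.70) than with shSYK_2 (0.89, a call lost without shSYK_2 replicate 2), and the hairpins differed (-1.81, limma adjusted p = 2.13e-05).

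The other genes among the 14 largest shared rises spanned several functions. ADA2, a secreted adenosine deaminase of monocytes, changed by 1.48 with shSYK_1 and 0.91 with shSYK_2, and GPR137B, a lysosomal membrane protein, by 0.86 and 1.02. The interferon-induced antiviral synthetase OAS1 changed by 0.96 and 0.99, and the small GTPase RALB, an effector of RAS signalling, by 1.09 and 0.88. DYNLRB1, a dynein light chain, read 8.77, 8.76 and 8.69 with shLuc and 9.63 to 9.72 on the knockdown arrays, one of the tightest separations of the set. The list was completed by the muscle LIM protein CSRP3 (0.96 and 1.88), the serine protease PRSS12 (1.26 and 0.95), the collagen chain COL6A3 (1.27 and 0.91) and the glutamate transporter SLC1A3 (0.94 and 0.86). Second probe sets of PRSS12 and OAS1 gave smaller means (0.35 and 0.57), and the mean over probe sets was 0.73 for PRSS12 and 0.77 for OAS1.

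The shared falls after SYK began with ID1, an inhibitor of basic helix-loop-helix transcription factors. ID1 read 5.02, 4.43 and 5.02 with shLuc, 3.75 and 2.96 with shSYK_1, and 3.30 and 3.50 with shSYK_2. The arrays did not overlap, and the change was -1.45 ± 0.175 (limma, adjusted p = 2.13e-05). Partner factors moved less: of the 10 measured ID and partner genes 0 rose and 3 fell, where 9.92% of all genes rose and 9.49% fell. ID1 was the one called with each hairpin.

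MS4A4A, a four-span membrane protein of monocytes and macrophages, read 6.01, 5.73 and 6.22 with shLuc and between 4.44 and 4.61 on all 4 knockdown arrays. It fell by 1.45 ± 0.166 on the log2 scale (limma, adjusted p = 1.24e-05). ALDH1A3, which makes retinoic acid from retinal, read 7.94, 7.74 and 7.96 with shLuc, 5.81 and 5.72 with shSYK_1, and 6.46 and 6.65 with shSYK_2, a change of -1.72 ± 0.138 (limma, adjusted p = 4.24e-07). ALDH2, the mitochondrial aldehyde dehydrogenase, also fell (-0.97 and -1.19 with shSYK_1 and shSYK_2). Its knockdown arrays, at 7.33 to 7.74, all lay below the shLuc arrays at 8.59 to 8.63.

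IL7R, the interleukin 7 receptor chain, read 4.64, 5.18 and 5.29 with shLuc, 4.19 and 3.69 with shSYK_1, and 3.33 and 3.25 with shSYK_2. GNB1, the G protein beta-1 subunit, fell by equal amounts with both hairpins on its brightest probe set (-0.99 and -1.01). Its other 2 probe sets gave -0.69 and -0.26 (mean over probe sets -0.65), so the size of the fall depends on the probe set while the direction did not. SPIB, an ETS transcription factor of B cells and plasmacytoid dendritic cells, changed by -1.29 and -0.91, and the receptor tyrosine kinase FGFR3 by -1.77 and -0.95. The other leading falls were the DNA glycosylase NEIL3 (-0.92 and -0.99), the clamp loader subunit RFC5 (-1.55 and -0.91), the desmosomal cadherin DSC2 (-0.97 and -1.29), the fucosyltransferase FUT7 (-0.85 and -1.0) and PRRG4 (-0.99 and -1.92).

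**Figure D2:**
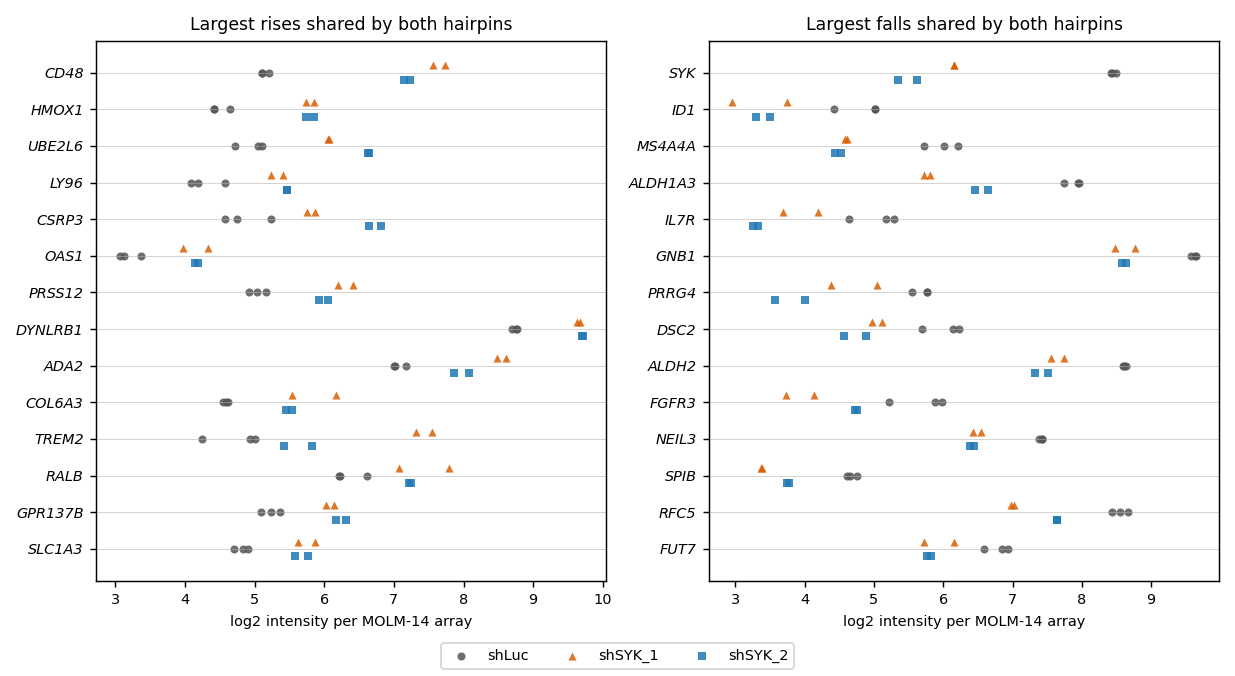
Log2 intensity on each MOLM-14 array (x axis) of the 14 genes with the largest shared rise (left) and the 14 with the largest shared fall (right), ordered by the smaller of the 2 hairpin changes. Grey circles are the 3 shLuc arrays, orange triangles the 2 shSYK_1 arrays and blue squares the 2 shSYK_2 arrays, and in no row do grey points overlap the coloured ones.

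Of these 28 genes, 13 of the 14 rises and 13 of the 14 falls stayed called with each hairpin whichever single MOLM-14 array was left out. The exceptions were TREM2 (without shSYK_2 replicate 2) and PRRG4 (without shSYK_1 replicate 2), and both stayed called on the mean. The size differed between the hairpins for 5 of the rises and 6 of the falls, where 25.9% of all genes tested (3155) differed. Dimmer probe sets of ALDH1A3, DSC2, FGFR3 and FUT7 did not pass the test (-0.28 to 0.04). The mean over probe sets was -0.59 for ALDH1A3, -0.61 for DSC2, -0.70 for FGFR3 and -0.61 for FUT7.

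Genes of the G1/S transition and DNA replication formed the most uniform part of the response. Of 46 measured members, 40 fell, 0 rose (also 0 at an unadjusted p below 0.05, limma) and 6 were not called, beside 9.49% of all genes lower. The median change was -0.43 with each hairpin taken alone and -0.41 for both, where the median over all genes tested was 0.02. With each hairpin singly and on the mean 33 of the 46 fell. That count dropped to 21 without shSYK_2 replicate 2 and lay between 25 and 31 without any other single array.

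Among factors that load and form the replicative helicase, the helicase loader CDT1 (-0.68 with shSYK_1 and -0.48 with shSYK_2), CDC6 (-0.53 and -0.67) and ORC1 (-0.52 and -0.47) fell, as did each of the 6 measured subunits MCM2 to MCM7 of that helicase. GINS1, a subunit of the GINS complex that joins that helicase, read 9.0, 8.90 and 8.99 with shLuc, 8.15 and 8.24 with shSYK_1, and 7.88 and 7.91 with shSYK_2. Its groups stood well apart, and the change was -0.92 ± 0.0516 (limma, adjusted p = 9.76e-09). CDC45, the third helicase component, read 7.93, 8.05 and 7.97 with shLuc and 7.26 to 7.38 on the knockdown arrays.

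RFC5, part of the clamp loader that places PCNA on DNA, read 8.67, 8.55 and 8.43 with shLuc, 7.02 and 6.98 with shSYK_1, and 7.64 and 7.64 with shSYK_2. The clamp PCNA itself moved little but fell with both (-0.26 and -0.24). TYMS, which makes thymidylate for DNA synthesis, read 11.37, 11.31 and 11.20 with shLuc against 10.46, 10.35, 10.83 and 10.85 on the knockdown arrays, with a change of -0.67 ± 0.0609 (limma, adjusted p = 1.49e-06). Its second, dim probe set gave 0.26, and the mean of both was -0.20. In 13 of the 46 genes the hairpins differed in size, as in CCNE2, cyclin E2, which read 8.53, 8.41 and 8.27 with shLuc, 8.40 and 8.33 with shSYK_1, and 6.51 and 6.74 with shSYK_2. Its fall came from shSYK_2 (-1.77) and not from shSYK_1 (-0.04), and the hairpins differed (limma, adjusted p = 1.22e-05).

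E2F transcription factors are known to drive many of these genes at the G1/S boundary, so the promoters of members were read for the E2F site letters TTTCCCGC and TTTGGCGC on both strands, in the window from 250 bases before to 50 after the start site (RefSeq, GRCh38.p14). A match was found in 19 of the 40 list members with a promoter listed (47.5%), in 3.34% of the 9711 tested genes with a promoter and in 2.31% of all 27305 promoters. Among genes called with each hairpin it was found in 23 of the 275 that fell (8.36%), 14 of them members of this list, and in 12 of the 306 that rose (3.92%). The promoters of GINS1 and TYMS, which fell with both hairpins, are printed 5′ to 3′ with the match in capitals. It begins 6 bases into the transcript in GINS1 (chr20:25407423-25407722, plus strand) and 39 bases before the start in TYMS (chr18:657403-657702, plus strand).
GINS1: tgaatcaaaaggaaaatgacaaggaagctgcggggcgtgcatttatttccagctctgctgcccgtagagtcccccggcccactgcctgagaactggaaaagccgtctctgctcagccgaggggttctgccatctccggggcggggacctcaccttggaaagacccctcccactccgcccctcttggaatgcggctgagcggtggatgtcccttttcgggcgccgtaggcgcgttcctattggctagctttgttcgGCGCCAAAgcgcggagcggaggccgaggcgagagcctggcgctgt
TYMS: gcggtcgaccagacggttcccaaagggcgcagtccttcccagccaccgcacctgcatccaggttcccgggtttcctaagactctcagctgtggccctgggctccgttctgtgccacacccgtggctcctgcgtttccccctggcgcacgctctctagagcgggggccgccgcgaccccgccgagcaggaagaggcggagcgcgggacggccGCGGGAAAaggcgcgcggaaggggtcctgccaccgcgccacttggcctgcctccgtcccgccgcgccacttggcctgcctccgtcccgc
The promoters of RFC5 and CDC45, which fell as well, held neither word in this window.

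Of 31 measured mitotic genes 26 fell, 0 rose (also 0 at an unadjusted p below 0.05, limma) and 5 were not called, beside 9.49% of all genes lower. The median change was -0.24 with shSYK_1 and -0.43 with shSYK_2. With each hairpin singly 15 fell (11 to 14 when single arrays were left out). CDK1, the kinase that starts mitosis, read 10.48, 10.45 and 10.40 with shLuc and 9.86 to 10.06 on the knockdown arrays, a change of -0.50 ± 0.0591 (limma, adjusted p = 1.79e-05). FOXM1, the transcription factor of the mitotic programme, changed by -0.29 and -0.59, the centromere histone CENPA by -0.45 and -0.74, and the kinase AURKB by -0.38 and -0.48. The proliferation marker MKI67 did not share a sign (0.26 and -0.71), and the topoisomerase TOP2A changed by -0.24 with shSYK_1 and -1.14 with shSYK_2.

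**Figure D3:**
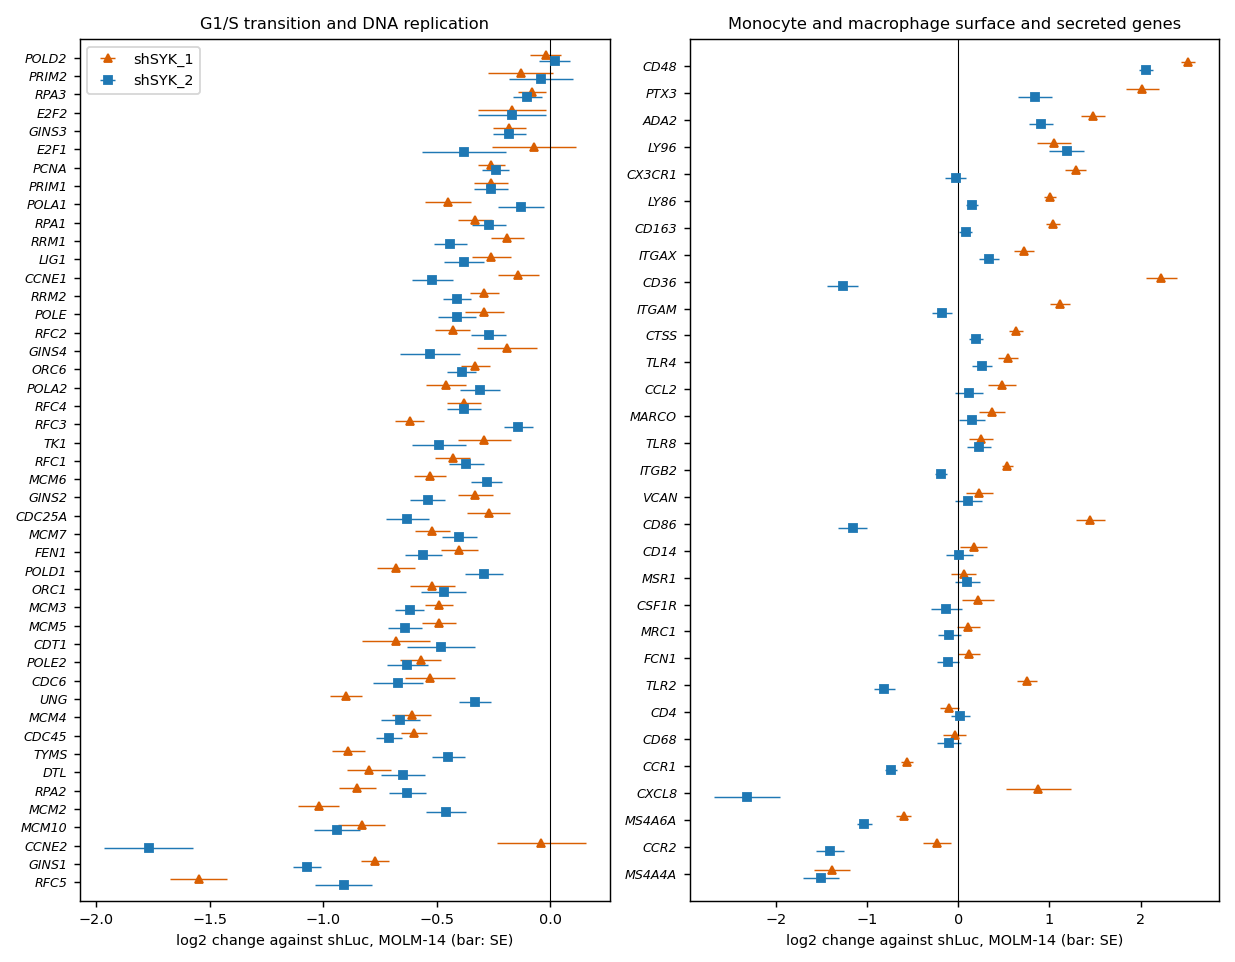
Log2 change against shLuc in MOLM-14 (x axis) with shSYK_1 (orange triangles) and shSYK_2 (blue squares) for the 46 measured G1/S and replication genes (left) and the 31 measured monocyte and macrophage genes (right), with bars of 1 standard error. Nearly all replication genes lie left of 0 with both hairpins (40 fell), while the monocyte genes spread to both sides and several, such as CD36 and CD86, lie on opposite sides with the 2 hairpins.

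Monocyte and macrophage surface and secreted genes, which mark differentiation of myeloid cells, did not move as a block. Of 31 measured members 13 rose, 4 fell and 14 were not called, where 9.92% of all genes rose and 9.49% fell. The median change was 0.54 with shSYK_1 and 0.01 with shSYK_2, and the excess of rises came mainly from shSYK_1. With it 16 rose and 3 fell (13.0% and 12.5% of all genes), against 5 and 9 with shSYK_2 (8.47% and 8.12%). The members called with each hairpin were the rises of CD48, PTX3, ADA2, LY96 and the integrin ITGAX, and the falls of MS4A4A, MS4A6A and CCR1. Leaving out shSYK_2 replicate 1 reduced the rises from 5 to 3.

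PTX3, the soluble pattern recognition molecule pentraxin 3, read 4.84, 4.44 and 4.21 with shLuc, 6.65 and 6.38 with shSYK_1, and 5.52 and 5.16 with shSYK_2. It rose by 1.43 ± 0.154 (limma, adjusted p = 6.72e-06), with a larger rise from shSYK_1, and its call with shSYK_2 was lost without shSYK_2 replicate 1. CCR1, a receptor for inflammatory chemokines, read 8.85, 8.78 and 8.91 with shLuc against 8.30, 8.28, 8.04 and 8.17 on the knockdown arrays. The change of CCR1 was -0.65 ± 0.0575, and its second probe set gave -0.59 (limma, adjusted p = 1.05e-06 and 0.0014). MS4A6A, a relative of MS4A4A, changed by -0.60 with shSYK_1 and -1.03 with shSYK_2. Changes of the endotoxin receptor TLR4 were 0.55 and 0.26, and those of CD14, 0.17 and 0.01, did not pass the test.

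Other genes of this kind went opposite ways with the 2 hairpins. In all, 306 genes (2.52%) were called with each hairpin but in opposite directions. S100A8, a calcium-binding protein abundant in monocytes and neutrophils, read 10.06, 9.97 and 10.10 with shLuc, 12 and 11.83 with shSYK_1, and 8.15 and 8.55 with shSYK_2. The shLuc arrays lay between the hairpins, with changes of 1.87 and -1.69 that differed by 3.56 log2 units (limma, adjusted p = 2.33e-11). Its partner S100A9 changed by 1.95 and -1.05, the scavenger receptor CD36 by 2.23 and -1.27, the nuclear antigen MNDA by 1.52 and -1.26, the co-stimulatory protein CD86 by 1.45 and -1.16 and the transcription factor TFEC by 1.20 and -1.01. The mean of both hairpins says little about such genes: it was 0.09 ± 0.0988 for S100A8 and reached -0.01 without shSYK_2 replicate 2. For CD36 the mean of 0.48 was called, and the call was lost without shLuc replicate 2 or 3, shSYK_1 replicate 1 or shSYK_2 replicate 2 (0.38 to 0.50). 

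The receptors and adaptors that feed SYK gave a mixed picture. Of 20 measured ITAM adaptors, Fc receptors, TREM receptors and related genes, 8 rose and 1 fell, where 9.92% of all genes rose and 9.49% fell. The median change was 0.39 with shSYK_1 and 0.09 with shSYK_2. FCER1G, the common gamma chain whose ITAM recruits SYK, read 4.90, 4.99 and 4.89 with shLuc, 4.32 and 4.17 with shSYK_1, and 4.43 and 4.21 with shSYK_2. It was the one member that fell, by 0.64 ± 0.0618 on the log2 scale (limma, adjusted p = 2.54e-06), and its arrays did not overlap. The other common adaptor, TYROBP (DAP12), changed the other way: it read 8.0, 7.94 and 8.12 with shLuc, 8.80 and 8.83 with shSYK_1, and 8.14 and 8.32 with shSYK_2, and rose on the mean of both.

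The rises in this list came mainly from shSYK_1, with which 10 rose (13.0% of all genes) against 1 with shSYK_2 (8.47% of all genes). TREM1, a TYROBP-coupled receptor that amplifies inflammation, changed by 1.67 with shSYK_1 and 0.18 with shSYK_2. The Fc gamma receptors FCGR2A (1.01 and 0.05) and FCGR2B (1.80 and 0.01) followed the same pattern, and their probe sets may bind transcripts of both genes. TREM2 was the one receptor of the list that rose with each hairpin, a call lost without shSYK_2 replicate 2.

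Among SYK and the proteins that act with it, 4 of 28 measured rose and 3 fell (5 with the mean of probe sets), near the shares over all genes (9.92% higher and 9.49% lower), and the median change was 0.01. BLNK, a scaffold that SYK phosphorylates, read 5.86, 5.83 and 5.93 with shLuc, 4.96 and 4.52 with shSYK_1, and 5.11 and 5.45 with shSYK_2, a change of -0.86 ± 0.125 (limma, adjusted p = 0.000119). The ubiquitin ligase CBLB, which restrains receptor signalling, rose (0.84 and 0.44), and so did the SRC family kinase FYN (0.51 and 1.18) on its brightest probe set. Dimmer probe sets of CBLB (0.03) and FYN (0.07 to 0.33) were not called, and the means over probe sets were 0.33 and 0.36. FYN read 5.81, 5.93 and 5.32 with shLuc and 6.16 to 6.89 on the knockdown arrays. The calls with each hairpin were lost for BLNK and CBLB without shSYK_2 replicate 1, and for FYN without shLuc replicate 3 or either shSYK_1 array, and all 3 genes stayed called on the mean. VAV1, the exchange factor activated by SYK, changed by 0.26 and 0.27. Leaving out shLuc replicate 3 left 2 of the 4 rises. LYN, the SRC family kinase that phosphorylates ITAMs, was called in opposite directions with the hairpins (0.24 and -0.26).

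FLT3 itself did not share a sign with the 2 hairpins. It read 9.86, 10.07 and 9.91 with shLuc, 9.08 and 9.14 with shSYK_1, and 10.08 and 10.09 with shSYK_2. Both shSYK_1 arrays were low, while both shSYK_2 arrays lay at or above the highest control array. The change was -0.84 ± 0.145 with shSYK_1 (limma, adjusted p = 0.000366) and 0.14 ± 0.145 with shSYK_2 (adjusted p = 0.597), and the hairpins differed by 0.98 (95% interval 0.64 to 1.31, adjusted p = 0.000187). The mean of -0.35 ± 0.121 missed the threshold (limma, adjusted p = 0.0556). It passed under 6 processing alternatives, with limma adjusted p between 0.00573 and 0.0359 at nearly the same size (-0.37 to -0.34), and in 0 of the 7 fits without 1 MOLM-14 array (adjusted p from 0.0791 to 0.199).

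MYC, the growth-promoting transcription factor, read 12.03, 12.12 and 12.02 with shLuc, 11.17 and 11.11 with shSYK_1, and 11.88 and 11.95 with shSYK_2. All knockdown arrays were below the controls, but the fall was 0.92 with shSYK_1 and the change with shSYK_2, -0.14, was not called (limma, adjusted p = 0.201). Across 21 measured genes of the FLT3, STAT5 and MYC axis 2 rose and 2 fell, near the shares over all genes (9.92% higher and 9.49% lower), and 0 were called with each hairpin. With MOLM-14 arrays alone, or with a pseudocount of 16, 4 fell, and with the mean of probe sets 1 rose. Of the rises 1 remained without shLuc replicate 2 or 3, shSYK_1 replicate 2 or either shSYK_2 array, and of the falls 1 without shLuc replicate 2. PIM1, a STAT5 target kinase, changed by -0.25 with shSYK_1, which was not called, and rose by 0.92 with shSYK_2. STAT5A (-0.25 and -0.07) and the feedback inhibitor CISH (-0.13 and 0.08) were not called on the mean.

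Of 28 measured MYC targets, mostly genes of ribosome biogenesis, 7 fell and 0 rose (1 rose at an unadjusted p below 0.05, limma). Over all genes 9.49% fell and 9.92% rose. Leaving out shLuc replicate 3 gave 4 falls and 1 rise. With a pseudocount of 16 there were 11 falls and with the trended and robust prior 12, each with 1 rise, and with the dimmest 40% left out 1 rose. The list had medians of -0.26 for shSYK_1 and 0.08 for shSYK_2. With shSYK_1 16 members fell (12.5% of all genes), against 2 with shSYK_2, near the share over all genes (8.12%). UTP20, a subunit of the pre-ribosome processome, fell with each hairpin (-0.47 and -0.48), the 1 member to do so (3 with the mean of probe sets). ODC1, the polyamine enzyme ornithine decarboxylase, changed by -0.62 and -0.08. The E-box CACGTG, to which MYC and MAX bind, was present in 13 of the 24 listed promoters of these genes (54.2%) and in 7.43% of all promoters. Over all tested genes it was present in 9.43%, and among genes called with each hairpin in 11.3% of falls and 9.8% of rises. Of the 26 measured ribosomal protein genes, 0 were called with limma, on the mean or with either hairpin alone (0 on the mean and 2 with shSYK_2 at an unadjusted p below 0.05).

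**Figure D4:**
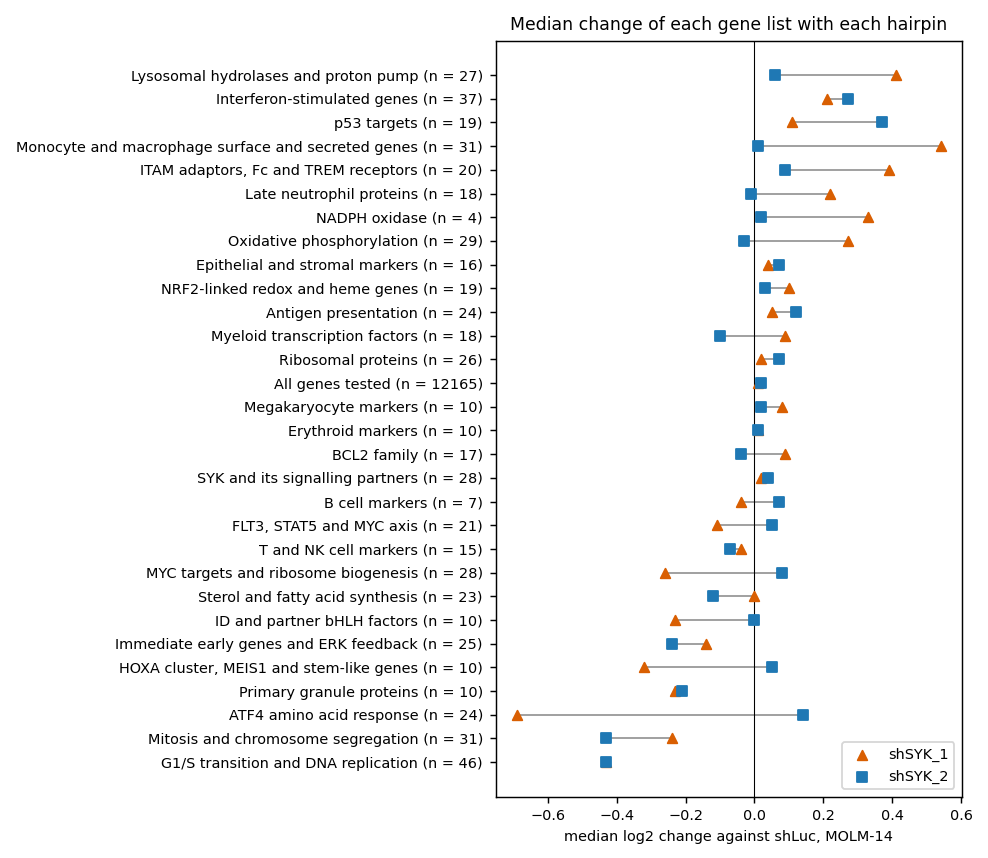
Median log2 change against shLuc in MOLM-14 (x axis) of the measured members of each gene list with shSYK_1 (orange triangle) and shSYK_2 (blue square), joined by a line, with all 12165 genes tested as a row of their own. The replication and mitosis lists lie left of 0 with both hairpins, the interferon list right of 0 with both, and the ATF4, MYC target and oxidative phosphorylation lists change sides between the hairpins.

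Immediate early genes and feedback regulators of the ERK pathway, which respond within minutes to growth signals, moved both ways: 7 of 25 measured fell and 3 rose, where 9.92% of all genes rose and 9.49% fell. The falls with each hairpin numbered 1 with the mean of probe sets and 5 with the trended and robust prior. EGR1, the zinc finger factor of the early growth response, read 9.53, 7.78 and 7.85 with shLuc, 8.27 and 6.38 with shSYK_1, and 4.95 and 5.18 with shSYK_2. The control and shSYK_1 arrays overlapped and scattered by over 1 log2 unit within each group, while both shSYK_2 arrays lay far below. Its mean change was -2.19 ± 0.403 (limma, adjusted p = 0.000936), carried by shSYK_2 (-3.32) and not called with shSYK_1 (-1.06, adjusted p = 0.129). FOS, with which EGR1 is often induced, went opposite ways (0.62 and -1.39), and JUN was raised by shSYK_1 only on these arrays (1.69 and 0.00).

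JUND read 11.03, 10.91 and 10.93 with shLuc against 10.36 to 10.55 on the knockdown arrays, and fell with each hairpin (-0.55 and -0.45). The ERK feedback inhibitor SPRY4 (-0.37 and -0.55) and the stress gene IER3 (-0.64 and -0.68) also fell with each, SPRY4 by less as the mean over probe sets (-0.28). The count of 3 falls with each hairpin was 1 without shLuc replicate 1, shSYK_1 replicate 2 or shSYK_2 replicate 2, and 6 without shLuc replicate 3. The ERK phosphatase DUSP6, usually read as a marker of ERK output, changed by 0.51 with shSYK_1 and 0.11 with shSYK_2. The CArG box, the site of serum response factor, was found in the promoter of EGR1 alone among 18 listed promoters of this list and in 1.29% of all promoters. EGR1 holds 2 of them, 105 and 83 bases before the start, shown in capitals (chr5:138465229-138465528, plus strand).
EGR1: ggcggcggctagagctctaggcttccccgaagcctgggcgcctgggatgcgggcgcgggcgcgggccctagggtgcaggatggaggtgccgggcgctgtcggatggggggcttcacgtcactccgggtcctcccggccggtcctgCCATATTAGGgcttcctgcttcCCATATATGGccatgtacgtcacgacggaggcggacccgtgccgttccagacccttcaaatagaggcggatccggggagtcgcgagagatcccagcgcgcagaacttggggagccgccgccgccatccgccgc

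Of 37 measured interferon-stimulated genes 16 rose, 2 fell and 19 were not called, where 9.92% of all genes rose and 9.49% fell. The median change was 0.21 with shSYK_1 and 0.27 with shSYK_2. UBE2L6, OAS1, IFI6, ISG15, IFIH1, BST2 and TRIM22 rose with each hairpin, 7 in all and 2 without shSYK_2 replicate 2. For IFIH1 the mean over probe sets was 0.39, against 0.66. ISG15, the ubiquitin-like protein that UBE2L6 conjugates, read 6.69, 6.55 and 6.71 with shLuc, 7.43 and 7.4 with shSYK_1, and 6.89 and 7.11 with shSYK_2, a rise of 0.55 ± 0.0712 (limma, adjusted p = 4.03e-05). IFI6, an interferon-induced mitochondrial protein, read 4.93, 4.90 and 4.86 with shLuc against 6.39, 6.40, 5.35 and 5.78, and did not overlap either. The transcription factor IRF7 (-0.21 and -0.49) and SAMHD1 (0.18 and -1.10) were the 2 members that fell on the mean.

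The core of the interferon response element, searched as GAAANNGAA on both strands, occurred in 20 of 28 listed promoters of this list (71.4%), in 8.29% of all promoters and in 6.87% of those of genes tested. Among genes called with each hairpin it occurred in 9.48% of the 306 promoters of rises and 3.64% of the 275 of falls. ISG15 carries 3 overlapping matches that begin 113, 107 and 101 bases before the start (chr1:1013247-1013546, plus strand), whereas the promoters of UBE2L6 and OAS1 held none in this window.
ISG15: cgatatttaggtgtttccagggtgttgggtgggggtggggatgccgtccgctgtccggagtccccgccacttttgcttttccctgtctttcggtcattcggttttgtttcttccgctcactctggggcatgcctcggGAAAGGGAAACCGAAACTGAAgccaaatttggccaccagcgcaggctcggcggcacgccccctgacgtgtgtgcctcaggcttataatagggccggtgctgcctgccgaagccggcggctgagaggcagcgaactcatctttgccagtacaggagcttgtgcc

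Antigen presentation genes changed in part: 5 of 24 measured rose and 1 fell, where 9.92% of all genes rose and 9.49% fell. With the trended and robust prior 8 rose. The falls numbered 0 with the dimmest 40% left out, and 0 without any 1 of 6 of the arrays, the exception being shLuc replicate 1. HLA-DRB1, a class II chain, read 7.28, 7.30 and 7.44 with shLuc, 7.71 and 7.80 with shSYK_1, and 8.34 and 8.53 with shSYK_2, and HLA probe sets can bind several HLA genes. The immunoproteasome subunits PSMB8 (0.14 and 0.52) and PSMB9 (0.17 and 0.71) rose on the mean, mainly with shSYK_2.

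On the mean of both hairpins 15 of 27 measured lysosomal genes rose and 0 fell (also 0 at an unadjusted p below 0.05, limma). Over all genes 9.92% rose and 9.49% fell. Of the 15 rises 12 had the same sign with each hairpin. With shSYK_1 20 rose and 0 fell (13.0% and 12.5% of all genes), and with shSYK_2 9 rose and 2 fell (8.47% and 8.12%). The median change was 0.41 with shSYK_1 and 0.06 with shSYK_2. PSAP, the precursor of the saposins that help degrade sphingolipids, read 9.59, 9.64 and 9.58 with shLuc and 9.90 to 10.02 on the knockdown arrays, a rise of 0.37 ± 0.0489 that was alike with both hairpins (0.40 and 0.35, limma adjusted p = 4.55e-05). The hexosaminidase subunit HEXA (0.32 and 0.33) and the cholesterol exporter NPC1 (0.27 and 0.42) rose by similar amounts. The protective protein CTSA rose with shSYK_1 (0.98) and hardly with shSYK_2 (0.06). Rises with each hairpin numbered 8, 5 with MOLM-14 arrays alone or the mean of probe sets, and 5, 3, 3 and 2 without shLuc replicate 1, shLuc replicate 2, shSYK_2 replicate 1 and shSYK_2 replicate 2.

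Redox and heme genes linked to the transcription factor NRF2 gave 4 rises and 2 falls among 19 measured, where 9.92% of all genes rose and 9.49% fell. All 4 rises held with each hairpin whichever array was left out. Besides HMOX1 they were ME1, the NADPH-forming malic enzyme (0.73 and 1.11, mean over probe sets for both hairpins 0.61), the quinone reductase NQO1 (0.83 and 0.36) and the biliverdin reductase BLVRB (0.81 and 0.49). NQO1 read 7.75, 7.79 and 7.84 with shLuc, 8.60 and 8.64 with shSYK_1, and 8.17 and 8.13 with shSYK_2, and all 3 of its probe sets rose. The list as a whole had a median of 0.07. Both subunits of glutamate cysteine ligase, classical NRF2 targets, fell on the mean (GCLC -0.59 and 0.14, GCLM -0.29 and -0.06), and the number of falls was 0 with MOLM-14 arrays alone or without shLuc replicate 1 and 1 without shLuc replicate 3, shSYK_1 replicate 2 or shSYK_2 replicate 2. The antioxidant response element core TGACNNNGC was found in 3 of 15 listed promoters and in 13.6% of all promoters.

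The amino acid response driven by ATF4 separated the hairpins. Of 24 measured members 10 fell and 0 rose on the mean (also 0 at an unadjusted p below 0.05, limma), where 9.49% of all genes fell. But 21 fell with shSYK_1 (12.5% of all genes), whereas 4 rose and 2 fell with shSYK_2 (8.47% and 8.12% of all genes). The median change was -0.69 with shSYK_1 and 0.14 with shSYK_2. ASNS, asparagine synthetase, read 9.68, 10.21 and 9.53 with shLuc, 8.62 and 8.95 with shSYK_1, and 10.08 and 10.04 with shSYK_2. The glutamine carrier SLC1A5 fell with shSYK_1 (-1.30) and less with shSYK_2 (-0.38, adjusted p = 0.0498 with limma), a call lost without any of the shLuc or shSYK_2 arrays. The large amino acid transporter SLC7A5 changed by -1.31 and 0.06.

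Oxidative phosphorylation was likewise raised by 1 hairpin: 23 of 29 measured genes rose with shSYK_1 and 2 with shSYK_2, with medians of 0.27 and -0.03. Over all genes 13.0% rose with shSYK_1 and 8.47% with shSYK_2. On the mean 10 rose and 1 fell, where 9.92% of all genes rose and 9.49% fell. The rises numbered 6 with MOLM-14 arrays alone and 17 with a trended and robust prior. COX5B, a cytochrome oxidase subunit, rose with each (0.41 and 0.22), a call lost without shLuc replicate 3 or either shSYK_2 array.

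Genes of cell death and p53 moved in both directions. BCL2, the antiapoptotic protein targeted by venetoclax, read 8.70, 8.91 and 8.68 with shLuc and 7.92 to 8.12 on the knockdown arrays, a fall of 0.71 ± 0.0804 on the log2 scale that was alike with the hairpins (-0.76 and -0.66, limma adjusted p = 1.12e-05). Of its 3 dimmer probe sets 1 was called (-0.59) and the others were not (-0.15 and -0.22), and the mean over probe sets was -0.42. Its relative BCL2A1 went up, from 6.66, 6.33 and 6.36 with shLuc to 7.94 and 7.79 with shSYK_1 and 7.11 and 7.21 with shSYK_2. PMAIP1 (NOXA), a proapoptotic BH3-only protein, read 9.60, 9.30 and 9.21 with shLuc, 8.20 and 7.83 with shSYK_1, and 8.74 and 8.64 with shSYK_2. All 3 genes kept their calls with each hairpin in every fit without 1 array.

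Across the 17 measured BCL2 family genes 4 rose and 3 fell, where 9.92% of all genes rose and 9.49% fell. Among 19 measured p53 targets 8 rose and 2 fell, the falls near the share over all genes. The medians were 0.11 for shSYK_1 and 0.37 for shSYK_2. The damage-recognition proteins DDB2 (0.40 and 0.41) and XPC (0.20 and 0.60) and the zinc finger gene ZMAT3 (0.82 and 0.52) rose, as did the proapoptotic BAX (0.26 and 0.63). The falls were PMAIP1 and the cell cycle inhibitor CDKN1A (-0.09 and -0.65), and 1 of the 2 remained with MOLM-14 arrays alone or without shLuc replicate 1 or 3, shSYK_1 replicate 2 or either shSYK_2 array. Rises with each hairpin numbered 4, and 2 without shSYK_1 replicate 1.

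Myeloid transcription factors and granule genes showed few shared changes. IRF8, a factor of monocyte and dendritic cell fate, read 11.03, 11.07 and 11.05 with shLuc and 10.21 to 10.41 on the knockdown arrays, and fell by 0.70 ± 0.0534 on the log2 scale (limma, adjusted p = 3e-07). RUNX3 fell as well (-0.49 and -0.76), and both kept their calls in every fit without 1 array. In all, 2 of the 18 measured factors rose (1 without shLuc replicate 1 or 3, shSYK_1 replicate 1 or shSYK_2 replicate 2, or with MOLM-14 arrays alone) and 3 fell, near the shares over all genes (9.92% and 9.49%). NFE2 was left at control level by shSYK_1 (0.01) and changed by -1.56 with shSYK_2. Myeloperoxidase (MPO) read 5.98, 6.28 and 6.19 with shLuc and 5.11 to 5.52 on the knockdown arrays, whereas neutrophil elastase (ELANE) rose slightly (0.31 and 0.33). CYBB, the catalytic subunit of the phagocyte NADPH oxidase, read 4.22, 3.99 and 3.86 with shLuc, 6.71 and 6.65 with shSYK_1, and 3.97 and 4.09 with shSYK_2. Its arrays stood apart with shSYK_1 (2.66) and overlapped with shSYK_2 (0.01), and the mean over its 3 probe sets was 0.58 for both hairpins together.

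Marker lists of other lineages showed almost no change, apart from the epithelial and stromal list. Of erythroid (10 measured), megakaryocyte (10) and B cell (7) markers 0 were called on the mean with limma (0, 1 and 1 at an unadjusted p below 0.05). Without shSYK_1 replicate 1 a megakaryocyte marker was called, and without shSYK_2 replicate 2 a B cell marker. Of 15 T and NK cell markers IL7R fell, and of 16 epithelial and stromal markers 3 rose, beside 9.92% of all genes higher. Those were the smooth muscle actin ACTA2 (0.15 and 1.67, mean over probe sets for both hairpins 0.42), PECAM1 (0.75 and -0.10), which monocytes also express, and CDH1, which lay near the lowest values (2.65 to 3.16). The summed intensity of the epithelial and stromal markers was 973 to 987 on the shLuc arrays and 1220 to 1310 on the knockdown arrays. The sums of the other lists overlapped or nearly met between the groups, at 2100 to 2410 and 1830 to 2290 for erythroid and 348 to 383 and 307 to 335 for T and NK cell markers. Their part in the results above was not tested.

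The MOLM-14 response was then set against that of U937 (monocytic, from a histiocytic lymphoma) and HL-60 (promyelocytic), which carried the same 3 hairpins and had their own control arrays. The test was the MOLM-14 change minus the mean of the other 2 changes, and 743 genes were called (6.11%), 353 higher in MOLM-14 (2.9%) and 390 lower (3.21%). The labels of HL-60 shSYK_2 replicate 1 conflict on its hairpin, and without that array 933 genes were called. The line differences of all 59 named genes that had one stayed called with the same sign without it, and none moved by more than 0.1. Of the 685 genes called with each hairpin in MOLM-14, 213 differed between the lines (246 without that array). The 685 were selected on the same MOLM-14 values that this test uses. A share above that over all genes therefore follows in part from the selection, and the count is only a description. The 6 higher and 6 lower line differences named by the rule were taken from these 685 genes. The number of line differences was also lower, at 480, 475 and 489 without MOLM-14 shLuc replicate 1, shSYK_2 replicate 1 and shSYK_2 replicate 2.

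Part of the shared response was called in the other lines too. Of the 356 genes that rose with each hairpin in MOLM-14, 148 rose and 4 fell in U937, where 7.16% of all genes rose and 7.58% fell. In HL-60 200 of them rose and 8 fell, where 11.4% of all genes rose and 13.1% fell. Of the 329 that fell, 206 fell and 6 rose in U937, and 164 fell and 11 rose in HL-60. Without the HL-60 array with conflicting labels the matching counts for that line were 206 rises and 144 falls. CD48 (2.04 in U937 and 1.13 in HL-60), HMOX1 (1.30 and 1.81) and ADA2 (0.60 and 1.89) rose in all lines, and RFC5 (-1.23 and -0.85) and GNB1 (-0.79 and -0.68) fell in all.

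By this test 1 of the 46 replication genes was higher and 2 were lower in MOLM-14 than the mean of the others. Of the list 43 genes fell in U937, whereas 20 fell and 1 rose in HL-60. Its median change was -0.18 in HL-60, against -0.44 in U937 and -0.41 in MOLM-14. The test uses the mean of both other lines, so few calls do not show that HL-60 responded like MOLM-14. Among mitotic genes 26 of 31 fell in U937, whereas in HL-60 2 fell and 5 rose. The median change of the mitotic list was -0.34 in both MOLM-14 and U937 and -0.02 in HL-60. CDK1, AURKB and CENPA were lower in MOLM-14 than the mean of the other 2 lines. Their changes in HL-60 were -0.05, -0.11 and -0.11, so these differences do not set MOLM-14 apart from U937.

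Monocyte genes held more line differences than any other of the lists. Of the 31 measured, 17 were lower and 3 higher in MOLM-14 than the mean of the others, where 3.21% and 2.9% of all genes were. Among the 17 are CD36 and CD86, which went opposite ways with the 2 MOLM-14 hairpins, so their MOLM-14 mean describes neither. In U937 19 rose and 0 fell (1 lower at an unadjusted p below 0.05), and in HL-60 20 rose and 0 fell (0 lower unadjusted, limma). FCER1G fell in MOLM-14 (-0.64) and rose in U937 (1.06) and HL-60 (1.17), a difference of -1.76 ± 0.0757 (limma, adjusted p = 5.29e-10). It was dim in MOLM-14, with a shLuc mean of 4.92 against 7.63 over all arrays of the series. CCR1 also fell in MOLM-14 and rose in the others (-0.65 against 0.86 and 1.13, difference -1.65). MS4A4A fell in MOLM-14 (-1.45), rose in U937 (2.93) and was not called in HL-60 (-0.12), the widest difference among the genes called with each hairpin (-2.85 ± 0.203, limma adjusted p = 4.64e-07).

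Several leading MOLM-14 genes were called there and not in either other line. ALDH1A3 (0.02 in U937 and -0.15 in HL-60), IL7R (0.09 and -0.15), CSRP3 (-0.04 and 0.09) and PRSS12 (-0.19 and 0.03) stayed near 0, and each differed between the lines by the test. The mean log2 intensities of these genes over all arrays of the series were 4.44, 3.31, 3.73 and 4.29. In MOLM-14 their shLuc means were higher, at 7.88, 5.04, 4.85 and 5.04. Their expression in the other lines, and so whether a fall could have been seen there, was not tested. UBE2L6 changed by 0.03 in U937, which was not called, and rose by 0.36 in HL-60 against 1.39 in MOLM-14. The cyclin CCNA1 rose with each hairpin in MOLM-14 (2.32 and 0.61), rose by 0.30 in U937 and fell in HL-60 (-0.56), the largest positive difference of those genes (1.59 ± 0.0860, limma adjusted p = 1.19e-08). DTX4, a ubiquitin ligase of the Deltex family, fell in MOLM-14 (-0.92), stayed at 0.00 in U937 and rose in HL-60 (0.60).

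**Figure D5:**
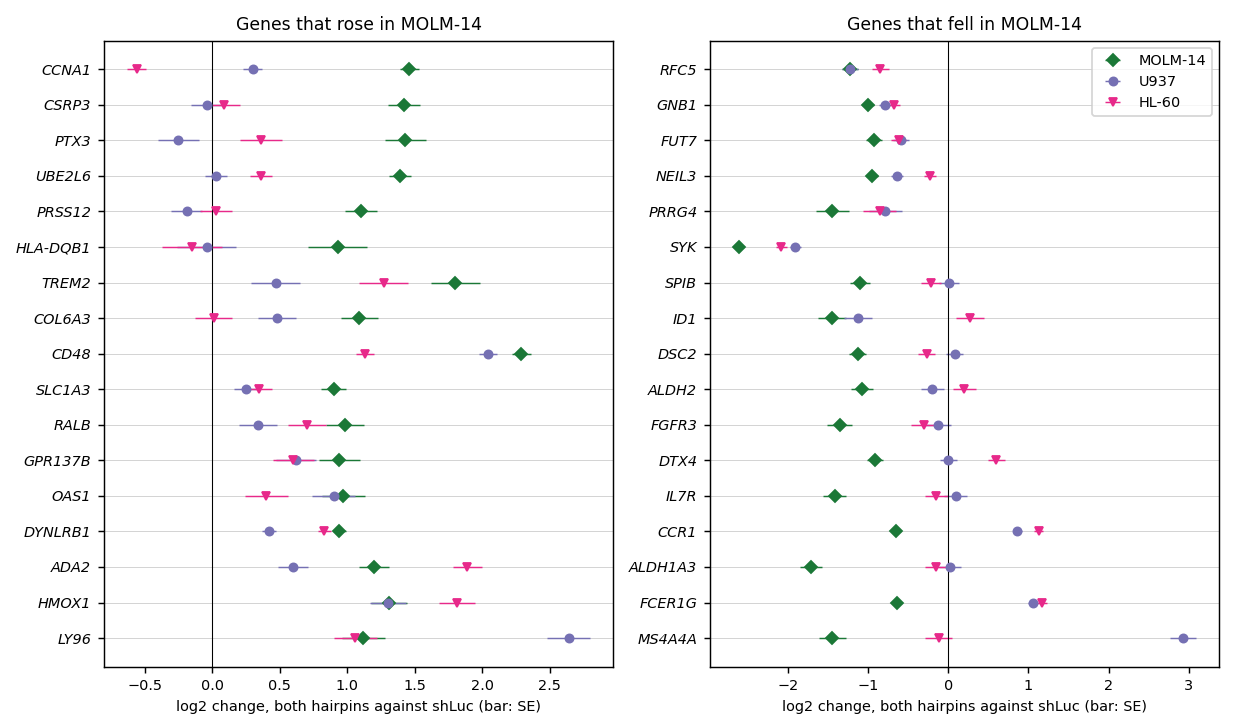
Log2 change of both SYK hairpins against shLuc (x axis, with bars of 1 standard error) in MOLM-14 (green diamonds), U937 (purple circles) and HL-60 (pink triangles) for genes that rose (left) or fell (right) in MOLM-14, ordered by the MOLM-14 change minus the mean of the other lines. HMOX1, ADA2 and RFC5 moved in all lines, while FCER1G and CCR1 lie on opposite sides of 0 in MOLM-14 and the other lines.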

How the data were processed

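RNA of 21 cultures (3 lines, each with 3 shLuc, 2 shSYK_1 and 2 shSYK_2 replicates) was read on Affymetrix high-throughput human genome arrays. The deposited value table holds intensity values that the authors obtained by robust multi-array averaging (RMA), per the submitters' processing notes, on a linear scale as the values themselves show (3.232 to 13024.671 in MOLM-14, with array medians of 19.638 to 20.338). RMA quantile-normalizes, so a shift common to most genes would not be seen, and the table has no detection calls. The number of arrays limits the precision.

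Values were taken to log2 as deposited, with no pseudocount. Of 22277 probe sets, 62 were controls, 19724 had 1 gene symbol in the platform annotation, 568 several and 1923 none. Symbols were updated to current ones for 19707 and kept for 17, and the brightest probe set stood for each of 12165 genes. limma 3.58.1 in R 4.3.3 fitted all 21 arrays with 1 mean per line and hairpin (lmFit, eBayes, 12 residual degrees of freedom, prior 4.09), with Benjamini-Hochberg adjustment over all genes and calls below 0.05. Both hairpins together are the mean of the shSYK_1 and shSYK_2 means minus the shLuc mean. Adjusted p-values of second probe sets come from a fit over all probe sets.

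The members, the 29 gene lists (664 genes, 598 measured) and the rules were chosen with earlier results of these data known. The named genes were SYK, FLT3 and MYC, the 14 rises and 14 falls with the largest smaller hairpin change among genes called with each hairpin, up to 4 members of each list with the smallest p among those called with 1 sign, the 6 genes with the largest opposite changes, and 6 higher and 6 lower line differences. The rule also let any list member be named where its role is described. Genes at the edge of the sign rule were chosen after their values were seen. The fits were checked on simulated data. The alternatives were probe-set averaging, a filter on the dimmest 40%, a pseudocount of 16, median centring, quantile normalization, array weights, a trended and robust prior, MOLM-14 arrays alone, the replicate number as a block and single arrays left out. Leaving out the HL-60 array with conflicting labels was added after seeing the data.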

Additional observations from a re-analysis of the deposited data

Results flagged for a closer look

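The response of MOLM-14 to both hairpins minus the mean response of U937 and HL-60 differed from 0 (limma, adjusted p below 0.05 over 12165 genes) for 59 of the genes named by the rule. The values are differences of log2 changes.

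The change in MOLM-14 was higher than the mean of the other lines for CCNA1 (1.59), CSRP3 (1.4), PTX3 (1.38), UBE2L6 (1.19), PRSS12 (1.18), HLA-DQB1 (1.02), TREM2 (0.93), COL6A3 (0.84), FYN (0.71), CD48 (0.7), ACTA2 (0.68), CYBB (0.62), SLC1A3 (0.6), HLA-DRB1 (0.59), CBLB (0.49), ZMAT3 (0.49), ME1 (0.4), ELANE (0.36), XPC (0.36), DYNLRB1 (0.31) and COX5B (0.25). Receptors and secreted proteins (CD48, TREM2 and PTX3), class II antigen genes (HLA-DQB1 and HLA-DRB1) and structural genes (ACTA2 and COL6A3) are among them. The call of HLA-DQB1 with each hairpin held in 1 of the 7 fits without a single array.

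The change in MOLM-14 was lower for MS4A4A (-2.85), FCER1G (-1.76), CD36 (-1.72), CCR1 (-1.65), ALDH1A3 (-1.65), CD86 (-1.41), IL7R (-1.4), DTX4 (-1.22), FGFR3 (-1.14), ALDH2 (-1.08), DSC2 (-1.04), ID1 (-1.02), SPIB (-1), S100A8 (-0.98), CHAC1 (-0.96), BLNK (-0.94), MS4A6A (-0.86), HP (-0.8), FCGR2B (-0.76), LY96 (-0.73), SYK (-0.63), S100A9 (-0.59), PMAIP1 (-0.57), RUNX3 (-0.57), MPO (-0.52), NEIL3 (-0.52), JUND (-0.51), SREBF1 (-0.43), TFEC (-0.4), FADS1 (-0.39), NQO1 (-0.37), BLVRB (-0.34), CENPA (-0.34), GARS1 (-0.31), IRF8 (-0.29), SLC38A2 (-0.29), AURKB (-0.28) and CDK1 (-0.26). Monocyte genes lead this group, and it holds 3 mitotic genes (CDK1, AURKB and CENPA). CD36, CD86, S100A8, S100A9 and TFEC were called in opposite directions with the 2 hairpins in MOLM-14. The MOLM-14 mean in this test therefore describes neither hairpin for them. CD36 changed by 2.23 with shSYK_1 and -1.27 with shSYK_2, against means of 2.78 in U937 and 1.62 in HL-60. DSC2, FGFR3 and SPIB had mean log2 intensities of 3.42, 3.48 and 3.26 over all arrays of the series. Their MOLM-14 shLuc means were 6.02, 5.70 and 4.67. For ALDH1A3 and IL7R the means over the series were 4.44 and 3.31, and the MOLM-14 shLuc means 7.88 and 5.04. Whether any of these genes was expressed in the other lines was not tested. For SYK the difference means a deeper knockdown in MOLM-14 than in the other lines on this scale (-2.62 against -1.91 and -2.09).

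All 59 differences kept their call and sign without HL-60 shSYK_2 replicate 1, whose labels conflict on the hairpin. The groups held 2 or 3 arrays each, too few for a search for single outlying arrays.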

How the results depend on the processing

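Counts of called genes over all genes tested kept within 1.5 times of their value under every processing alternative run except those named in this paragraph and the single arrays named in the next. With a pseudocount of 16 the difference between the lines rose from 743 to 1149 genes. The fit with the replicate block called 1385 genes for both hairpins (2361 without it), 1224 for shSYK_2 (2018), 258 for the difference between the lines (743) and 394 with each hairpin (685). Deviations of same-numbered arrays correlated at -0.0446 to 0.0716 over all genes in MOLM-14. In groups of 2 arrays the deviations mirror each other, and an effect on part of the genes need not show in such a value. Whether the replicate numbers pair the cultures is therefore not settled. The block leaves 6 residual degrees of freedom against 12. No gene among the 28 largest shared changes lost its call with the block.

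Without 1 array at a time, the HL-60 array with conflicting labels included, the counts ranged from 1079 to 2335 for shSYK_2, from 475 to 933 for the difference between the lines and from 389 to 813 with each hairpin. The lowest values came without a shSYK_2 array. Without MOLM-14 shLuc replicate 1 the difference between the lines also moved, to 480 genes. S100A8 ranged from -0.01 to 0.19 around its main value of 0.09. The antiapoptotic gene MCL1, called at 0.18, gave -0.07 (limma, adjusted p = 0.555) as the mean of its 5 probe sets, which differ in sign, and also lost its call with MOLM-14 arrays alone, with the block, and without shLuc replicate 2 or 3, shSYK_1 replicate 2 or either shSYK_2 array. The share of calls that were higher stayed between 48.7% and 52.3% over all settings, and the median change of all genes between 0.004 and 0.022. With 2 arrays per hairpin and no detection calls, small changes of dim genes cannot be resolved.

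Counts within the gene lists moved more. With the replicate block the rises were 2 of oxidative phosphorylation genes (10 without it), 2 of SYK partners (4), 0 of the FLT3 axis (2) and 1 of myeloid transcription factors (2), and the falls were 3 of MYC targets (7), 0 of interferon-stimulated (2), 0 of NRF2-linked (2), 0 of antigen presentation (1), 0 of oxidative phosphorylation (1) and 1 of p53 genes (2). Calls with each hairpin were then 0 rises of SYK partners (3), 4 lysosomal rises (8), 4 interferon-stimulated rises (7), 2 p53 rises (4), 23 falls of replication genes (33) and 0 oxidative phosphorylation rises (1). ITAM-linked rises with each hairpin were 2 in place of 1 with array weights, a pseudocount of 16, the dimmest 40% left out and the trended and robust prior. Oxidative phosphorylation rises with each hairpin ranged from 0 to 5 over all settings. With quantile normalization 1 ID or partner gene rose, with the trended and robust prior 1 ribosomal protein gene rose, and with the dimmest 40% left out IL7R was not tested.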
